A study of Mus musculus with 20 samples.

Results

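The mRNAs that bind iron regulatory protein 2 (IRP2) in mouse liver were read from 4 arrays, a pair of IRP2 pulldowns and a pair of control pulldowns, out of 20 arrays over 5 tissues. The 4 were chosen as the arrays whose titles name liver. In each reaction, 50 µg of total liver RNA was mixed with recombinant His-tagged IRP2 made in bacteria, and the complexes were collected with a monoclonal antibody to the His tag. The control reactions ran in parallel with the antibody and without IRP2. About 120 ng of the recovered RNA was amplified in a 2-step procedure and hybridised to an Affymetrix array of the whole mouse genome. RNA came from C57BL6/J mice of both sexes, kept from weaning on a diet of under 10 mg iron per kg for 21 days, and was pooled over 4 mice. IRP2 and control arrays thus share strain, diet and RNA source, so a ratio between them compares reactions on one RNA source, not diets. No label says whether replicates 1 and 2 came from separate mice, so p-values reflect the spread of the 20 arrays alone, and that spread may be technical. The other 16 arrays, used for the spread and for comparison, are IRP2 and control reactions of duodenum and spleen (same diet) and of bone marrow and brain (iron-normal diet, mice of 8 to 10 weeks).

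Iron regulatory proteins are RNA-binding proteins that sense the iron supply of a cell. When iron is scarce they bind a short hairpin in certain mRNAs, the iron-responsive element (IRE). Bound upstream of the coding sequence, as in ferritin or ferroportin mRNA, they block translation. Bound downstream of it, as in transferrin receptor mRNA, they protect the mRNA from decay. The liver stores much of the body's iron, and its hepatocytes make hepcidin and transferrin, which set iron entry into the blood and carry it there.

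Of 45101 probe sets on the array, 24323 (53.9%) were tested, after 64 of the manufacturer's control probe sets and those below their array's median on all 4 liver arrays were left out. Of the tested ones, 20585 name 1 gene, 12951 genes in all. Of the rest, 590 name several genes and 3148 none, and these are counted but not named. Values are log2 intensities. A ratio is the mean over both replicate pairs of the IRP2 value minus the control value on that scale (n = 2 pairs). The ± gives its standard error from the limma fit, which draws the spread from all 20 arrays. It is not the scatter of the 2 liver pairs. Adjusted p-values are from limma with the replicate number as a block, with Benjamini-Hochberg adjustment over all 24323 probe sets, and a probe set was called when its adjusted p was under 0.05. Rank correlations were 0.991 and 0.992 within the pairs, 0.987 between the IRP2 arrays and 0.991 between the controls.

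The replicates differed in one respect that the labels do not give. Both replicate 2 arrays, IRP2 and control alike, carried more signal for genes of the intestinal lining than both replicate 1 arrays. The secreted protein Prap1 read 4.48 and 4.22 on the control and IRP2 arrays of replicate 1, and 10.46 and 10.48 on those of replicate 2. The duodenal iron reductase Cybrd1 read 3.79 and 3.86 in replicate 1 against 7.47 and 7.46 in replicate 2. On a list of 20 intestine markers, written after this difference was seen, 19 had a probe set naming 1 gene, and 16 of these were higher on both replicate 2 arrays than on both replicate 1 arrays. Over the 19, the median was 5.22 and 5.78 on the control and IRP2 arrays of replicate 1 and 7.21 and 7.33 on those of replicate 2, against 11.6 in the duodenum controls. In all, 87 tested probe sets were at least 1 log2 unit higher in replicate 2 in both reactions and 7 at least 1 unit lower. None of the called probe sets described below was among these, none of the 15 intestine markers that could be tested was called, and their part in the results was not tested. Many results are therefore shown array by array, since replicate 1 alone gives the ratio where these markers are low. Others are given by their mean ratio only.

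**Figure D1:**
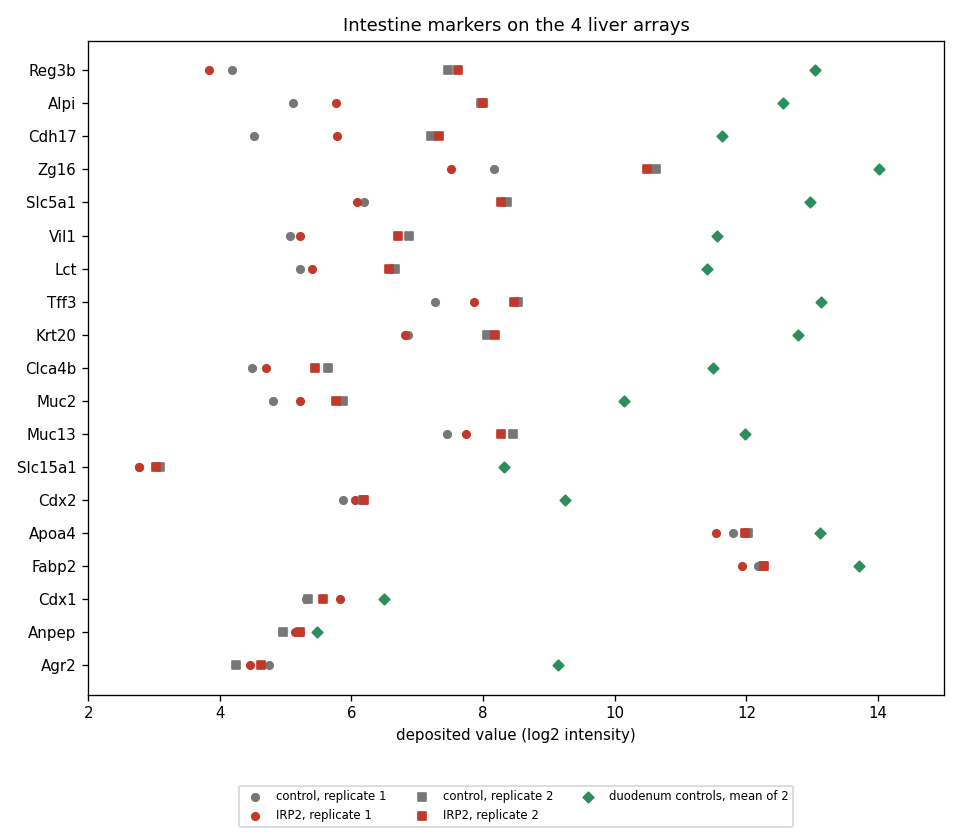
Deposited log2 intensity (x axis) of 19 intestine marker genes (y axis) on the 4 liver arrays, with the mean of the 2 duodenum controls as green diamonds; circles are replicate 1, squares replicate 2, grey control and red IRP2. For 16 genes both squares lie to the right of both circles. Red and grey symbols of 1 replicate mostly lie closer together, except for some in replicate 1 such as Cdh17 (control 4.52, IRP2 5.78).

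A small set of liver mRNAs was higher with IRP2. Of the 24323 probe sets, 65 (0.267%) were higher with IRP2 and 6 (0.0247%) lower. At an unadjusted limma p under 0.05, 752 were higher and 592 lower, where about 1216 in all would be expected without any difference. The 65 ratios ran from 0.82 to 2.78 with a median of 1.27, and 60 were at least 2-fold. In all 65, both IRP2 arrays lay above both control arrays, as they did in 13.5% of all tested probe sets. The 65 were of like size in both pairs, with a median of 1.36 in replicate 1 (0.78 to 2.93) and of 1.24 in replicate 2 (0.76 to 3.31). Among the 65, 10 passed the filter on low values through the IRP2 arrays alone, so for these a difference was built in. Of the 65, 50 name 1 gene each, 42 genes in all. The median ratio over all tested probe sets was -0.05.

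**Figure D2:**
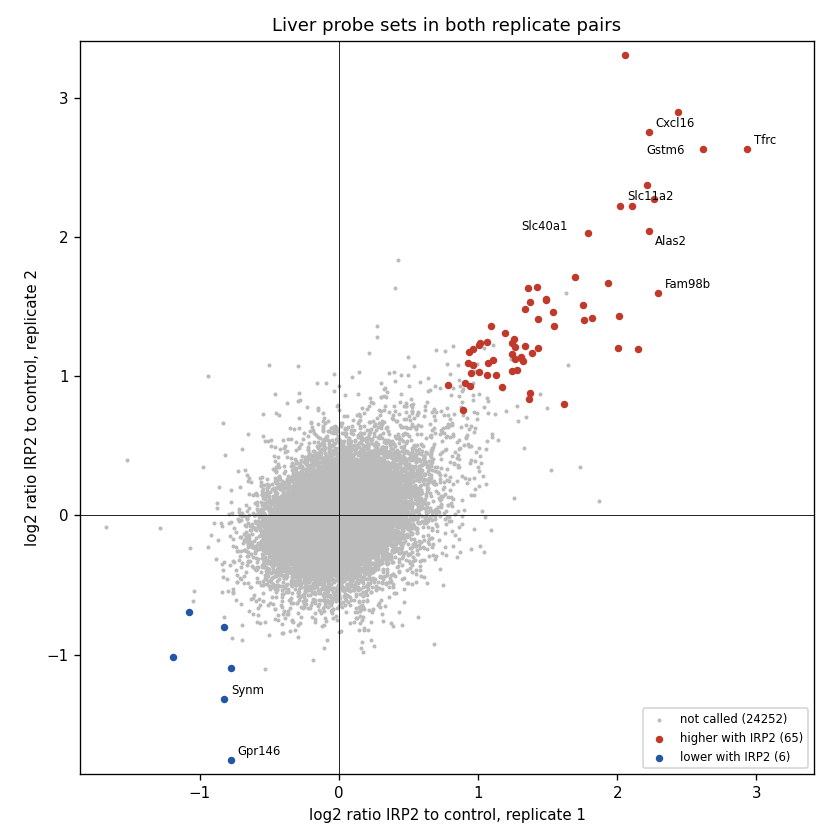
Log2 ratio of IRP2 to control in replicate 1 (x axis) and replicate 2 (y axis) for 24323 liver probe sets; red marks the 65 called higher, blue the 6 called lower, grey the 24252 not called. The called probe sets lie along the diagonal, away from the grey cloud centred near 0.

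The highest ratio of all belonged to the transferrin receptor. Tfrc encodes the receptor that brings transferrin-bound iron into cells, and its mRNA carries several IREs downstream of the coding sequence. Probe set 1452661_at read 10.55 and 11.05 on control arrays 1 and 2 and 13.48 and 13.68 on the IRP2 arrays, a ratio of 2.78 ± 0.19, or 6.88-fold (limma adjusted p = 5.9e-05). A second, dimmer probe set of Tfrc, 1422966_a_at, read 6.08 and 5.90 in the controls and 8.14 and 9.22 with IRP2, a ratio of 2.68 ± 0.32 (limma adjusted p = 0.0027). The groups did not overlap on either probe set, and the replicates were further apart on the second, with 2.05 in replicate 1 and 3.31 in replicate 2. The remaining probe set, 1422967_a_at, lay below the array medians on all 4 arrays and was not tested.

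The importer Slc11a2 (DMT1), which moves ferrous iron across the membrane of the gut and of endosomes, makes mRNA isoforms with and without a downstream IRE. Its 4 tested probe sets gave different ratios. On 1452078_a_at the controls read 7.12 and 7.36 and the IRP2 arrays 9.14 and 9.58, a ratio of 2.12 ± 0.23 (limma adjusted p = 0.0012). On 1426441_at they read 6.56 and 7.23 against 7.62 and 8.24, a ratio of 1.04 ± 0.15 (limma adjusted p = 0.01), with replicate 2 higher in both reactions. The remaining pair was not called: 1441709_at had a ratio of 0.47 and 1417584_at one of -0.03, with overlapping groups. Which isoform each probe set reads is not given in the files.

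The exporter ferroportin, Slc40a1, is the only known route of iron out of cells, and its IRE lies upstream of the coding sequence. Probe set 1448566_at read 8.61 and 8.60 in the controls and 10.40 and 10.62 with IRP2, a ratio of 1.91 ± 0.17 (limma adjusted p = 0.00038). The brighter 1417061_at read 11.89 and 12.06 against 12.63 and 12.81. IRP2 lay above control in both pairs there too, by 0.74 and 0.75, but the limma adjusted p was 0.31. It was 0.0019 when the bone marrow arrays were left out of the fit, which then called 1.08% of all probe sets higher, against 0.267%.

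Ferritin heavy chain, Fth1, forms the shell in which the liver stores iron and is the classic mRNA with an upstream IRE. Its probe set 1448771_a_at read 12.72 and 12.90 in the controls and 13.96 and 14.03 with IRP2, a ratio of 1.18 ± 0.22 that missed the call (limma adjusted p = 0.057). The other, 1427021_s_at, read 13.06 and 13.06 against 13.74 and 13.80, a ratio of 0.71 (limma adjusted p = 0.2). The groups did not overlap on either. Both were called in the fit without bone marrow (limma adjusted p = 3.7e-05 and 0.014). That fit called 1.08% of all probe sets higher, against 0.267% with all arrays. Ferritin light chain and mitochondrial aconitase, the remaining mRNAs of the classic group, are not named here, since none of their probe sets names 1 gene alone.

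Alas2, which starts heme production in erythroid precursors, also has an mRNA with an upstream IRE. Its probe set read 7.64 and 7.33 in the controls and 9.87 and 9.37 with IRP2, a ratio of 2.13 ± 0.19 (limma adjusted p = 0.00038). The groups did not overlap, and replicate 1 was higher in both reactions. Of 12 erythroid markers, 4 were tested and none was called, with ratios from -0.18 to 0.22 and a summed level of 8.21 and 8.09 on the control and 8.31 and 8.09 on the IRP2 arrays (log2). Gata1, Hba-a1 and Slc4a1 lay below the array medians.

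Epas1 encodes the hypoxia factor HIF-2α, whose mRNA has an upstream IRE and which drives iron uptake genes in the gut. Probe set 1449888_at read 6.17 and 6.49 in the controls and 7.47 and 7.62 with IRP2, a ratio of 1.22 ± 0.17 (limma adjusted p = 0.0087). The brighter 1435436_at read 11.21 and 11.22 against 11.71 and 11.93, a ratio of 0.61 that was not called (limma adjusted p = 0.41). So of the 6 IRE mRNAs measured, 5 had at least 1 called probe set, as had 42 of all 12951 genes (0.324%). On the brightest probe set 3 of the 6 were called (Tfrc, Alas2 and Slc11a2), and all had IRP2 above control, with a median ratio of 1.43. Over all genes on their brightest probe set, 30 (0.232%) were called higher and 3 (0.0232%) lower, and the median was -0.06. The IRE list is textbook knowledge drawn in part from studies of IRP2 binding, and earlier results of these arrays were known when it was written, so its count is a description.

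**Figure D3:**
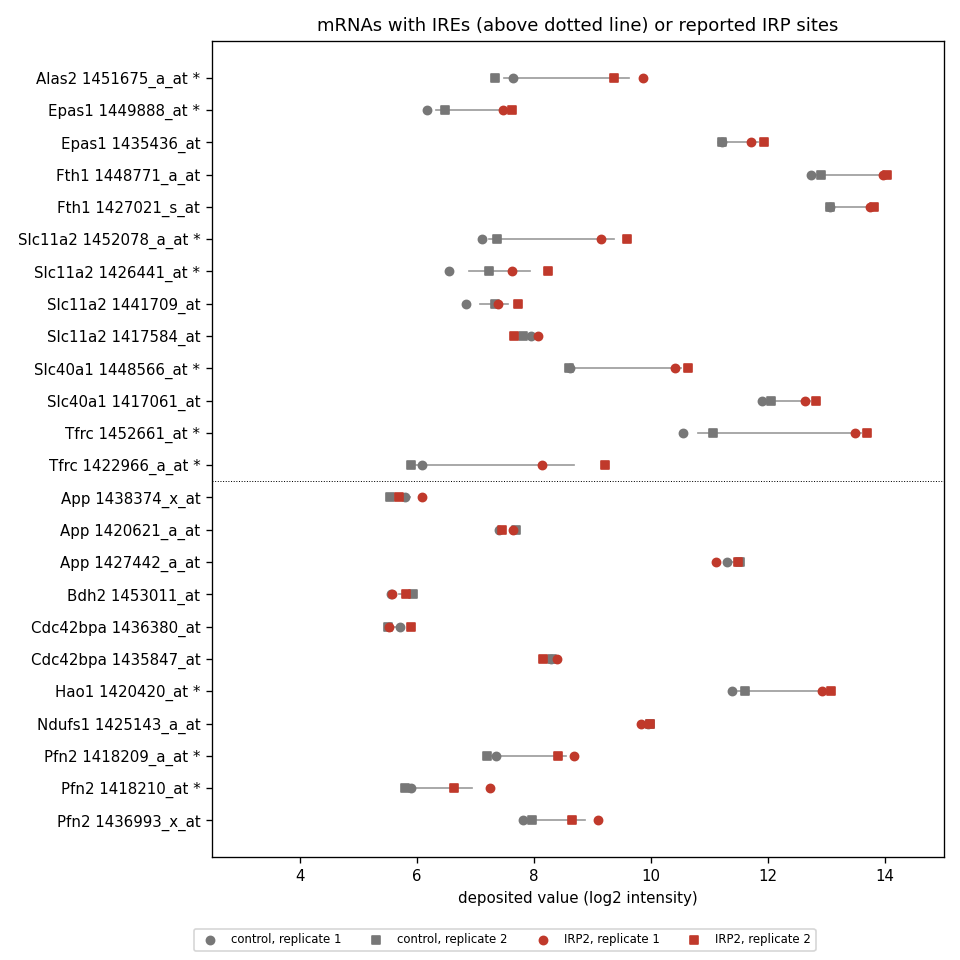
Deposited log2 intensity (x axis) of every tested probe set of 6 IRE mRNAs (above the dotted line) and 6 further mRNAs with a reported IRP site (below), with control arrays in grey, IRP2 arrays in red, circles for replicate 1, squares for replicate 2, a line from the control mean to the IRP2 mean, and an asterisk at each called probe set. Red lies right of grey in both pairs on 12 of the 13 IRE probe sets, and all but 4 of the lower 11 have red and grey mixed.

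Beyond the classic group, 6 mRNAs with an IRP site reported in the literature were tested. Hao1, the peroxisomal glycolate oxidase that is made almost solely in liver, read 11.37 and 11.61 in the controls and 12.91 and 13.07 with IRP2, a ratio of 1.50 ± 0.27 (limma adjusted p = 0.042). Its groups did not overlap, and the replicates lay close together in both reactions. Pfn2, an actin-binding profilin, was called on 1418209_a_at (7.34 and 7.20 against 8.68 and 8.42; ratio 1.28, limma adjusted p = 0.013) and on 1418210_at (ratio 1.10), and just missed on 1436993_x_at (ratio 0.98, limma adjusted p = 0.052). The other four had ratios near 0 on their brightest probe set and were not called: the amyloid precursor App -0.11, the respiratory chain subunit Ndufs1 -0.06, the siderophore enzyme Bdh2 -0.06 and the kinase Cdc42bpa -0.02. The median of these 6 was -0.04.

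Most of the called mRNAs have no textbook tie to iron. The glutathione transferases conjugate toxins to glutathione and are abundant in liver. Gstm6, a mu-class enzyme, read 6.59 and 6.39 in the controls and 9.21 and 9.02 with IRP2, a ratio of 2.62 ± 0.24 (limma adjusted p = 0.00038), the highest after Tfrc among genes with a name. Gstt3, of the theta class, read 9.11 and 8.95 against 10.20 and 10.32, a ratio of 1.23. Of the 20 transferases tested, only these 2 were called on their brightest probe set, against 0.232% of all genes, and the median was -0.13. The lists of transferases, chemokines and nucleotidases were written with earlier results known, so their counts are descriptions. Gstm7, of the same class as Gstm6, was not called and read 8.21 and 8.07 against 7.88 and 7.90, a ratio of -0.25.

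Cxcl16 is a chemokine held at the cell surface that also acts as a scavenger receptor. Its probe set 1449195_s_at read 6.29 and 6.36 in the controls and 8.52 and 9.12 with IRP2, a ratio of 2.49 ± 0.17 (limma adjusted p = 5.9e-05). On 1418718_at it read 7.33 and 7.34 against 8.64 and 8.48, a ratio of 1.22 (limma adjusted p = 0.014). The replicate 2 array was the higher of the IRP2 pair on the first probe set and the lower on the second. Among 14 chemokines tested it was the only one called on the brightest probe set, against 0.232% of all genes, and the median was -0.15.

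Lrpap1 is the chaperone that escorts receptors of the LDL family to the cell surface. It read 5.74 and 5.75 in the controls and 8.01 and 8.03 with IRP2 on 1452148_at, a ratio of 2.27 ± 0.23 (limma adjusted p = 0.00079). On 1426697_a_at the ratio was 1.05, but on the brightest probe set, 1436609_a_at, it was -0.10, and on 1426696_at -0.06. The list of the receptor family held 8 tested genes, Lrpap1 among them, and none was called on its brightest probe set. The only called probe sets of that list were the 2 of Lrpap1. Nt5c, a nucleotidase that strips phosphate from deoxynucleotides, read 8.18 and 7.99 against 10.29 and 10.21, a ratio of 2.17 ± 0.23 (limma adjusted p = 0.00092). Of 10 nucleotidases it alone was called on the brightest probe set, against 0.232% of all genes, with a median of -0.10 for the list.

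Further called mRNAs belong to none of the lists. Cct7, a subunit of the cytosolic chaperonin, was called on both probe sets: 8.54 and 8.59 against 10.47 and 10.26 on one (ratio 1.80) and 9.93 and 10.03 against 11.69 and 11.54 on the other (ratio 1.63). Pdcl3, a cofactor of that chaperonin, had a ratio of 1.24. Fam98b, part of the tRNA ligase complex, read 9.09 and 9.09 against 11.38 and 10.68, a ratio of 1.95 ± 0.21, with the replicate 1 array higher. The RNA helicase Dhx9 read 10.46 and 10.47 against 12.22 and 11.87, a ratio of 1.58. A second Dhx9 probe set had as high a ratio, 1.61, without being called (limma adjusted p = 0.087). Taf10, a subunit of the general transcription factor TFIID, had a ratio of 1.45, the chromatin remodeller subunit Ino80d one of 1.27, and Hmces, which shields damaged DNA sites, one of 1.41.

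The transcription factor mRNAs Egr2 and Erg and the telomerase mRNA Tert were called from low levels. Egr2 read 4.90 and 4.42 in the controls and 6.39 and 5.98 with IRP2 (ratio 1.52), and 1.52 on its second probe set too. Erg, an endothelial factor, read 4.89 and 4.48 against 6.90 and 5.91 (ratio 1.72), but -0.13 on its brighter probe set. All of these passed the filter on low values only through the IRP2 arrays. Tert, with a ratio of 1.13, passed in the same way.

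The cytokine receptor chain Csf2rb read 6.55 and 6.62 against 8.25 and 8.33, a ratio of 1.70 ± 0.21 (limma adjusted p = 0.0033). Lpl, the lipoprotein lipase that frees fatty acids from blood lipids, read 10.05 and 10.21 against 11.44 and 11.37, a ratio of 1.28. Pigr, which carries IgA across epithelia and into bile, read 9.28 and 8.88 against 10.29 and 10.10, a ratio of 1.12. Its brighter probe set had a ratio of 0.77 that was not called. The receptor Tnfrsf1b of tumour necrosis factor had a ratio of 1.16, and the protease Pcsk5, which cleaves proproteins, one of 1.07 on 1 of its 3 tested probe sets. Chmp2b, of the membrane-cutting ESCRT complex, had a ratio of 1.24, and one of 0.86 on its brighter probe set that was not called (limma adjusted p = 0.2). The plasmalogen enzyme Gnpat (0.94) and the prenyltransferase subunit Pggt1b (0.82) had among the smallest called ratios, with adjusted p-values of 0.043 and 0.048.

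The wider iron pathways held no called gene on the brightest probe set, on which 0.232% of all genes were called higher. Of 15 genes of iron transport without a classic IRE, none was called, and ratios ran from -0.28 for the ferritin receptor Ncoa4 to 0.10. Among 16 genes that control hepcidin the median was -0.08. Hamp, hepcidin itself, read 6.0 and 5.91 in the controls and 6.25 and 6.16 with IRP2, a ratio of 0.25 that was not called, and the receptor Il6ra had the highest ratio, 0.67, also not called (limma adjusted p = 0.31). The 9 tested genes of heme synthesis other than Alas2 had a median of -0.08 and ran from -0.43 (Cpox) to 0.14 (Abcb10). The 11 genes of iron-sulfur cluster assembly had a median of -0.08, and 12 of heme handling one of 0.03.

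The mRNAs of the iron regulatory proteins and of their turnover had the lowest median of any list, -0.27 over 6 genes. Ireb2, which encodes IRP2, read 8.78 and 9.14 in the controls and 8.50 and 8.89 with IRP2, a ratio of -0.26 ± 0.32. Its partner Aco1 (IRP1) had a ratio of -0.28 and Fbxl5, which marks both proteins for decay when iron is ample, one of -0.30. None was called, and the replicates of Ireb2 lay further apart than its reactions did.

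The main products of the liver had like values on the arrays with and without IRP2. About 120 ng of recovered RNA was amplified per reaction, so the values give shares of the recovered RNA, not amounts. Albumin, Alb, read 14.06 and 14.22 in the controls and 14.21 and 14.28 with IRP2, a ratio of 0.11. None of 19 plasma protein genes was called (median 0.08), nor any of 11 genes of the urea cycle and amino acid breakdown (-0.08), 15 of the cytochrome P450 and drug metabolism list (-0.07), 14 of glucose and lipid metabolism (-0.06), 16 of the citrate cycle (-0.15) or 13 cytosolic ribosomal proteins (-0.11). The 11 hepatocyte markers tested were present on all arrays, with a summed level between 16.4 and 16.6 (log2). None of the markers of other cells was called: 6 of Kupffer cells (median -0.14), 7 of sinusoidal endothelium (0.04), 8 of stellate cells (-0.10), 4 of bile duct cells (-0.05), 4 of lymphocytes (0.02) and 6 of pancreatic acini (0.09). Among all genes 0.232% were called higher on the brightest probe set, so lists this short would mostly hold no call. Over these lists the median difference between replicates 2 and 1 stayed within 0.31 in both reactions, unlike the intestine markers.

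**Figure D4:**
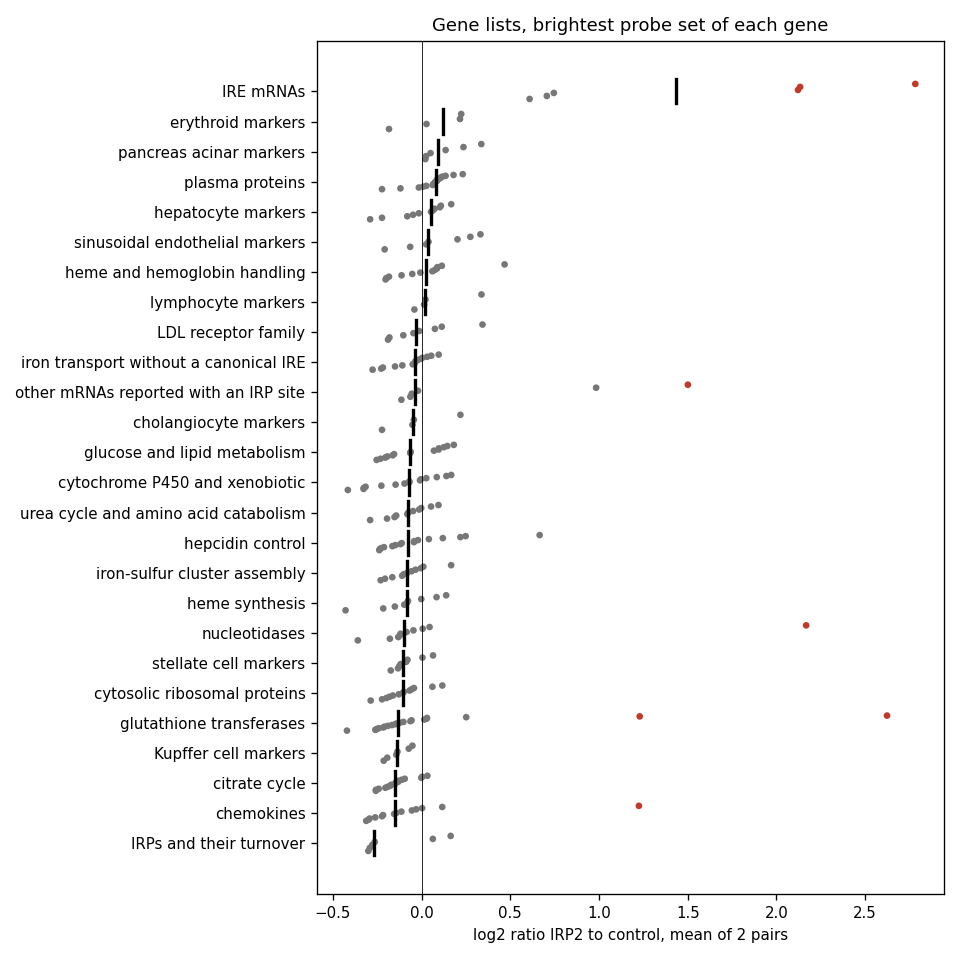
Log2 ratio of IRP2 to control in liver (x axis, mean of 2 pairs) for each gene of 26 lists on its brightest probe set; red points were called, grey ones not, and the black bar is the list's median. The IRE mRNAs have a median of 1.43, and the other lists lie between -0.27 and 0.12 with 2 red points among the glutathione transferases and 1 each among the reported IRP sites, nucleotidases and chemokines.

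The 6 probe sets that were lower with IRP2 covered 6 genes. Gpr146, an orphan receptor, read 6.48 and 6.76 in the controls and 5.70 and 5.0 with IRP2, a ratio of -1.27 ± 0.21 (limma adjusted p = 0.023), but its other 3 tested probe sets had ratios from 0.03 to 0.34. The membrane protein Marveld1 fell by 1.11 on 1 of 4 probe sets, the others lying between -0.17 and 0.26. The vitamin B12 carrier Tcn2 read 10.13 and 10.19 against 9.30 and 9.39, a ratio of -0.82, with -0.32 to -0.05 on 4 further probe sets. The intermediate filament gene Synm (-1.07) and the ephrin Efnb2 (-0.94) passed the filter on low values only through the control arrays, and the sixth was the predicted gene Gm20319 (-0.88). Efnb2 had another tested probe set, at -0.06. No gene was thus lower on more than 1 probe set.

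Probe sets of the same gene often disagreed. Of the 42 genes called higher, 25 had several tested probe sets, all of which were called for 5 (Tfrc, Cxcl16, Cct7, Egr2 and Aagab). For the remaining 20, the 26 probe sets not called had a median ratio of 0.06, within a range of -0.28 to 1.61. Of the 26, 16 lay within 0.3 of 0, and 6 were above 0.5. The remaining 17 genes had a single tested probe set. Probe sets read different stretches of a gene, mostly near the end of the transcript, so a ratio belongs to the transcripts that hold its stretch. The manufacturer's suffix _a marks probe sets shared by transcripts of 1 gene, while _s and _x mark ones that may read other genes.

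Most of the liver calls had counterparts in the other tissues, each measured against its own controls in the same fit. That fit gives a probe set the same spread in all 5 tissues, so its calls in different tissues are not independent. The shares over all probe sets do not allow for this. Of the 65 probe sets, 43 were also called higher in duodenum (against 0.317% of all probe sets there), 41 in spleen (0.317%), 26 in brain (0.132%) and 15 in bone marrow (0.267%). Of the 65, 9 were called in all 4: Tfrc, Cxcl16, Nt5c, Taf10, 2 of Lrpap1 and 3 not named. The median ratio of all 65 was 1.26 in duodenum, 1.24 in spleen, 0.90 in brain and 0.57 in bone marrow. Bone marrow also had the widest pair ratios over all probe sets, with an SD of 0.58 and 0.31 in its replicates against 0.26 and 0.23 in liver.

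Another 15 of the 65 were called in none of the other tissues, 9 of them with 1 gene: Hao1, 1700037C18Rik, Tmem267, Tert, Pigr, Zfp326, Slc11a2 on 1426441_at, Gnpat and Pggt1b. That alone does not show that liver differs. In the test of the difference, liver ratio minus the mean ratio of the other tissues, no probe set was called above (0%) or below (0%). The lowest limma adjusted p was 0.16. At an unadjusted limma p under 0.05, 353 were above and 464 below, where about 1216 in all would be expected without any difference. The smallest p-values were those of Gstm6, whose ratio of 2.62 in liver and 2.52 in duodenum stood beside 0.82 in brain, 0.03 in bone marrow and 0.02 in spleen, and of Synm, at -1.07 in liver and from -0.14 to 0.59 elsewhere.

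Without the bone marrow arrays in the fit, 9 probe sets (0.037%) had a liver ratio above the mean of duodenum, spleen and brain and 7 (0.0288%) one below. Those above included Gstm6 (by 1.50), the cell junction gene Patj (1.01), the uncharacterised 1700037C18Rik (1.01), Tfrc on 1452661_at (0.86) and Slc11a2 on 1452078_a_at (0.81). Those below included Synm (-1.20), the folate enzyme Ftcd (-0.86), Efnb2 (-0.87) and Arfip2 (-0.88). Arfip2 was itself called higher with IRP2 in liver, with a ratio of 1.01. Its ratios were larger in duodenum (1.75), spleen (1.62) and brain (2.31). The filter used the liver arrays only: 1700037C18Rik passed it through the IRP2 arrays alone, and Synm and Efnb2 through the controls alone, so part of their liver difference was built in. For Tfrc the order of ratios on 1452661_at was liver 2.78, brain 2.36, duodenum 1.95, spleen 1.46 and bone marrow 0.92, but on 1422966_a_at spleen led with 4.09 and liver was lowest with 2.68. Alas2 had ratios of 2.13 in liver, 2.31 in brain, 2.07 in spleen and 0.15 in duodenum. Epas1 had 1.22 in liver, 1.05 in duodenum and 1.03 in spleen, and 0.43 and 0.10 in brain and bone marrow.

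**Figure D5:**
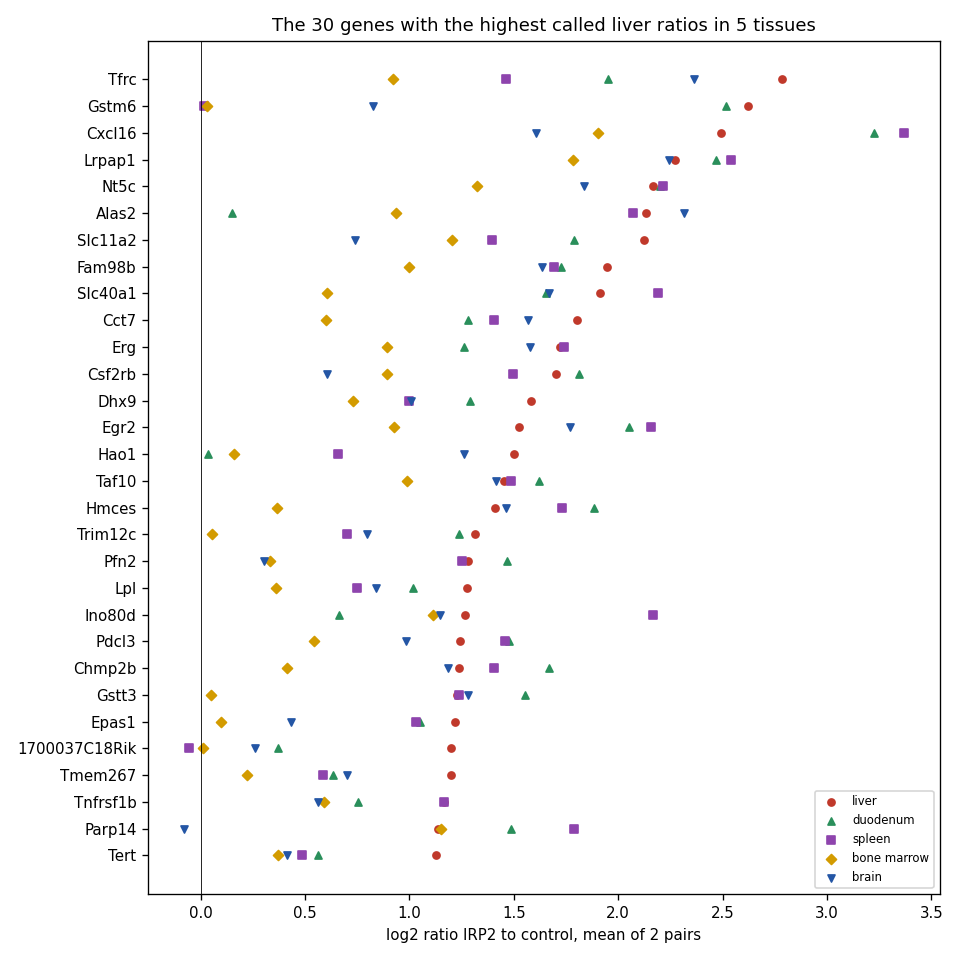
Log2 ratio of IRP2 to control (x axis, mean of 2 pairs) in 5 tissues for the 30 genes with the highest called liver ratio, on the probe set with that ratio; symbols mark the tissue. Gstm6 and Alas2 have tissues near 0, Lrpap1 and Nt5c lie between 1.32 and 2.54 in all 5, and bone marrow is often the lowest.

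The calls rest on both replicate pairs. Without replicate 2, the pair with more intestine signal, 4 probe sets were called higher (Tfrc on 1452661_at, Cxcl16 on 1449195_s_at, Fam98b and 1 not named), and without replicate 1, 6 (both of Tfrc, Cxcl16, Slc40a1 and 2 not named). None was called lower in either case. Without the bone marrow arrays, 262 (1.08%) were higher and 70 (0.288%) lower, and with the 4 liver arrays alone 455 (1.87%) and 191 (0.785%), the 71 called probe sets among them in both fits. Without the replicate block, 10 were higher and 0 lower: both Tfrc probe sets and Alas2, Cxcl16, Gstm6, Hmces, Lrpap1, Nt5c, Slc11a2 and Slc40a1.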

How the data were processed

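The authors deposited log2 intensities for 45101 probe sets and 20 arrays. Per the submitters' processing notes, values came from RMA, or from MAS5 in GCOS followed by quantile normalization; which of these made the deposited log2 values is not stated. The rows were used as given. Gene names came from the platform annotation (34958 probe sets with 1 symbol, 932 with several, 9211 with none); 34754 gene IDs were found in RefSeq and no symbol changed. limma 3.58.1 (R 4.3.3) was fitted to all 20 arrays with tissue and reaction, and replicate number within tissue as a block, leaving 5 residual degrees of freedom. The numbers pair the samples: deviations of same-numbered arrays from their group means correlated at 0.243 to 0.924 in every tissue (liver 0.61). The fit was tested on simulated data with the same spread in every tissue, so that test does not cover the wider spread of bone marrow. No 2 arrays were identical. The precision is limited by the number of arrays.

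Members, gene lists and tests were chosen with earlier results of these data known. Names were drawn from groups set by rule, and not every member is given in the text. The groups held every probe set of the IRE mRNAs and the 10 smallest p-values each way for liver against the other tissues. They also held the 30 highest and 15 lowest called probe sets with 1 symbol and both pairs in the called direction. Up to 4 members of each list and the other probe sets of these genes completed them. Intestine markers, Prap1, Cybrd1 and the smaller called ratios were named after their values were seen. Alternatives changed the block, arrays, filter, scaling and variance prior. No sequence is shown.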

Additional observations from a re-analysis of the deposited data

Results flagged for a closer look

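The array carries the manufacturer's own control probe sets for the transferrin receptor, which the comparison left out with all control probe sets. On these too the IRP2 arrays were above the control arrays of liver in both pairs, which singled them out. The probe set at the 3′ end of Tfrc read 5.54 and 5.47 in the controls and 6.31 and 7.32 with IRP2, a ratio of 1.31. The one in the middle read 3.12 and 3.45 against 3.86 and 4.11, a ratio of 0.70. The one at the 5′ end read 2.68 and 2.81 against 3.30 and 3.51, a ratio of 0.66. The groups did not overlap on any of the 3, none was tested, and the latter 2 lay far below the array medians of 5.65 to 5.69.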

How the results depend on the processing

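The counts moved most with the spread used. Liver probe sets numbered 65 higher and 6 lower with all arrays and the replicate block, 262 and 70 without the bone marrow arrays, 455 and 191 with the 4 liver arrays alone (1 residual degree of freedom), and 10 and 0 without the replicate block. All 65 and 6 were among the calls of both larger sets, and 10 and 0 of them were called without the block. Leaving out 1 liver pair, which leaves each liver reaction with 1 array assumed to vary like the other tissues, gave 4 to 6 higher and 0 to 0 lower. No filter, a filter on 2 of 20 arrays, centring, quantile normalization and a variance trend gave 60 to 71 higher and 4 to 5 lower. Only Tfrc on 1452661_at and Cxcl16 on 1449195_s_at were called under every alternative; 51 of the 65 and 2 of the 6 were under every one with both pairs and the block. Liver ratios above and below the mean of other tissues numbered 0 and 0, but 9 and 7 without bone marrow. Against duodenum and spleen only, chosen after seeing the data, they were 0 and 0, and 9 and 7 without bone marrow. No called ratio named here changed sign under any setting; ratios near 0 that were not called can, as the pairs of Cdc42bpa (0.11 and -0.15) and Bdh2 (0.01 and -0.12) show. The cause of these shifts was not tested.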

Other observations

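A wider group of liver mRNAs was called both without the bone marrow arrays and with the 4 liver arrays alone, but not with all arrays: 197 probe sets higher and 64 lower. The genes below were named after their values were seen. Mkrn1, a RING-finger ubiquitin ligase that binds RNA, stood higher on 4 probe sets, with ratios of 1.13, 0.90, 0.84 and 0.81 and both IRP2 arrays above both controls on each. The translation factor subunit Eef1b2 read 12.39 and 12.41 in the controls and 13.35 and 13.36 with IRP2, a ratio of 0.96. Rapgef2, an exchange factor of small GTPases, had a ratio of 1.36 and the kinase Prkg1 one of 1.16, both larger in replicate 1. Among genes of hepatocytes, the mannose-binding lectin Mbl1 read 11.14 and 11.33 against 11.92 and 11.90, a ratio of 0.67. The transcription factor Onecut1 had a mean ratio of 1.02 that differed between pairs, with 0.40 in replicate 1 and 1.63 in replicate 2.

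Of the 64 lower in both of these fits, 4 are given here. The bleomycin hydrolase Blmh had a ratio of -0.83, the thioredoxin-like Txndc17 one of -0.78 and the folate enzyme Ftcd one of -0.74. The endoplasmic reticulum chaperone Calr read 11.89 and 12.06 in the controls and 11.13 and 11.51 with IRP2, a ratio of -0.66.

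The replicates of liver also differed in genes other than those of the intestine. The heat shock gene Hspa1b was 1.64 to 2.04 higher in replicate 2 on 3 probe sets in the control reaction and 1.91 to 1.96 higher in the IRP2 reaction. The clock gene Dbp read 10.11 and 10.42 on the control and IRP2 arrays of replicate 1 and 8.41 and 8.47 on those of replicate 2. Metallothionein Mt2 was higher in replicate 1 in the same way, by 1.56 and 1.53.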
